A study of Mus musculus with 12 samples.

Results

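Protein-coding genes that earlier literature names as targets of the microRNA miR-210, 10 in all, were followed in macrophages with and without miR-210. They are Iscu, Efna3, E2f3, Ptpn1, Gpd1l, Sdhd, Cox10, Acvr1b, Casp8ap2 and Rad52, and they were found by matching the Ensembl identifiers of the count tables to mouse gene symbols. All 10 were among the 56941 identifiers counted. None of the 9 that gave counts was called different between miR-210 KO and WT macrophages in either state. Few genes were called between the genotypes at all, 0.461% of all genes tested in M0 and 0.980% in M2. The largest fitted difference among the 9, that of Iscu in M0, was 0.27 on the log2 scale. Between M2 and M0, Iscu was called higher in WT and Ptpn1 lower in both genotypes, in miR-210 KO just past the limit for a call. Iscu was also higher in miR-210 KO, by 0.29 on the log2 scale, but was not called there. Its response was not shown to differ between the genotypes. Of all genes tested, 43.0% were called between M2 and M0 in WT and 33.8% in miR-210 KO. Efna3 had 0 counts in all 12 libraries.

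A microRNA is loaded into an Argonaute protein and guides it to messenger RNAs, mostly through pairing of its seed, the bases near its 5′ end, with sites in the 3′ untranslated region (3′ UTR). Such pairing usually lowers the level of the messenger RNA, its translation, or both, so a count of messenger RNA sees only part of the action of a microRNA. miR-210 is known as a microRNA that is induced in low oxygen through hypoxia-inducible factors, and its published targets include genes of mitochondrial metabolism, the cell cycle, DNA repair, cell death and signalling.

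Monocytes from the bone marrow of C57Bl/6J mice were differentiated for 7 days with 20% fetal bovine serum (FBS) and, as a source of the growth factor M-CSF, 30% medium from cultures of L929 fibroblasts, and are called M0 macrophages. M2 macrophages had a further 72 h with IL-4 at 20 ng/mL. Per the study's methods, the M0 control wells were kept in the same conditions without IL-4. The miR-210 KO mice carried a germline deletion obtained by crossing mice with a floxed miR-210 gene to Gata-1 Cre mice, so the deletion was present in all cells and not only in macrophages, and KO and WT animals came from matings of heterozygotes. The 4 groups, M0 and M2 of each genotype, had 3 libraries each, sequenced from total RNA after removal of ribosomal RNA. Batch and group cannot be told apart, because the batch named in the labels differs for each group. They do not say that the 3 libraries of a group came from separate animals, so the p-values measure only the spread between these libraries, which may be technical. Libraries are numbered 1 to 3 as in the count tables. In bulk RNA, fewer cells that carry a transcript and less of it per cell cannot be told apart.

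The seed sites are shown first, because they are what a direct target would share with miR-210. The mature sequences of miR-210 come from RefSeq (GRCm38.p6), with the seed, bases 2 to 8, in capitals. The target sites are 24 bases of the messenger strand of GRCm39, 5′ to 3′, and their capitals mark the letters that pair with the seed.
mmu-miR-210-3p: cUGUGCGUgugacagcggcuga
mmu-miR-210-5p: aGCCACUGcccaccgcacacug
Iscu, chr5:113916035-113916058, plus strand: aaagaagctacgcaaaACGCACAc
Efna3, chr3:89221972-89221995, minus strand: agacaggacctatgcaACGCACAg
E2f3, chr13:30093715-30093738, minus strand: aattttttttttctaagCGCACAg
Gpd1l site 1, chr9:114731286-114731309, minus strand: acaactacagacacacACGCACAt
Gpd1l site 2, chr9:114729867-114729890, minus strand: tgtcgacctcagtgaaACGCACAc
Gpd1l site 3, chr9:114729575-114729598, minus strand: aagtcccacacctaaaACGCACAg
Acvr1b, chr15:101110300-101110323, plus strand: aattctccagactcaaACGCACAt

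The 3′ UTRs of a GENCODE annotation of GRCm39 were searched on the messenger strand for ACGCACAA (8mer), ACGCACA (7mer-m8), CGCACAA (7mer-A1) and CGCACA (6mer), and a site was given its longest match, since these letters overlap. Of the 10 genes, 5 held at least 1 match in their longest 3′ UTR. Gpd1l held 3 sites of the 7mer-m8 class, at 181, 1600 and 1892 bases after the stop codon in a 3′ UTR of 3066 bases, and was the one gene of the 10 with more than 1 match. Iscu, Efna3 and Acvr1b each held 1 site of the 7mer-m8 class, and E2f3 held 1 of the 6mer class. The site of Iscu was in 11 of its 13 annotated 3′ UTRs, those of Gpd1l in 5 of 6, and those of Efna3, E2f3 and Acvr1b in every annotated 3′ UTR of the gene (6, 4 and 4). No such letters were in the 3′ UTRs of Sdhd, Cox10, Ptpn1, Casp8ap2 and Rad52, with lengths between 620 bases for Casp8ap2 and 2947 bases for Ptpn1, and searching every annotated 3′ UTR gave the same 5 genes. The coding sequence of Ptpn1 held 1 site of the 7mer-m8 class, and those of Cox10, Efna3 and Acvr1b held 1 6mer each. Among the protein-coding genes tested in M0, 14.3% had at least 1 match and 6.5% a match of 7 or 8 letters. A match is a description of the sequence and does not show that miR-210 acts there.

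**Figure D1:**
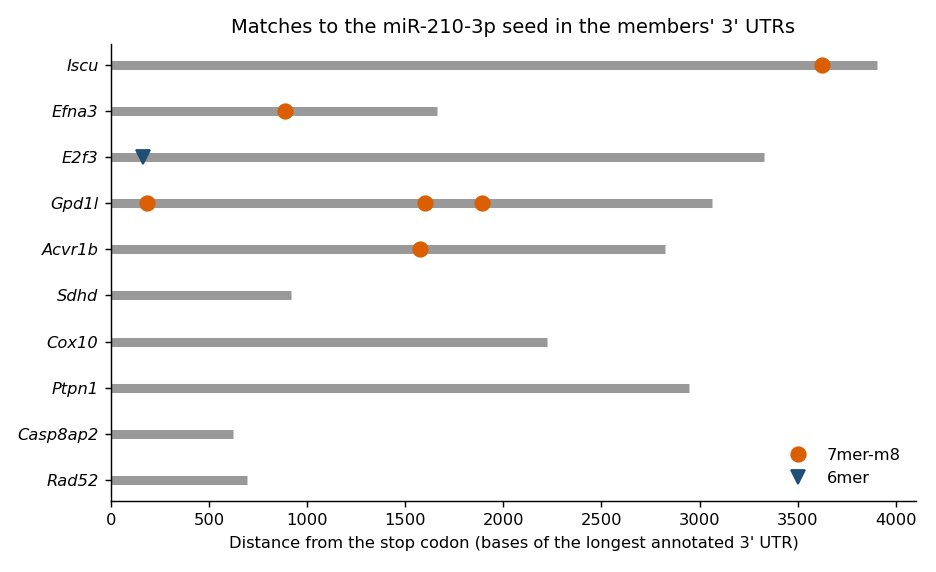
Matches to the miR-210-3p seed along the longest annotated 3′ UTR of the 10 genes, with the distance from the stop codon in bases on the horizontal axis. Grey bars show the length of the 3′ UTR, circles 7mer-m8 sites and the triangle a 6mer. Gpd1l has 3 sites, Iscu, Efna3, E2f3 and Acvr1b have 1 each, and the other 5 genes have none.

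The libraries held between 7930525 and 10167695 counts. Mir210 (chromosome 7, 140801297 to 140801406), which encodes the precursor of miR-210, was counted 1, 3 and 5 times in WT M0, 1, 2 and 1 times in WT M2 and 0 times in all 6 libraries of miR-210 KO, and libraries of this kind hold little of a mature microRNA. All 8 macrophage markers looked for, Adgre1, Csf1r and Cd68 among them, were present in every group. The sum of 4 IL-4 markers (Arg1, Retnla, Mrc1, Chil3) lay between 1540 and 2080 CPM (counts scaled to the size of the library) in M0 and between 6430 and 7020 CPM in M2. Mrc1 held most of the M0 sum, at 1470 to 2050 CPM, while Retnla was at 0 and Chil3 at most 0.381 CPM. Arg1 was at 34.4 to 50.6 CPM in WT M0, 62.9 to 84.7 CPM in miR-210 KO M0 and 1800 to 2000 CPM in M2. The summed markers of neutrophils, erythroid cells, T cells, B cells, fibroblasts, and mast cells or basophils were at most 4.63 CPM in any library. A list of 4 dendritic cell markers summed to 0.309 to 0.95 CPM in M0 and 10.1 to 17.9 CPM in M2, with Flt3 at 0 and Zbtb46 holding most of the sum in M2, and a list of 3 endothelial markers to 30.9 to 39.3 CPM in WT M0, 25.1 to 26 CPM in miR-210 KO M0 and 15.8 to 20 CPM in M2. Kdr made up most of the second sum, at 28 to 36.8 CPM in WT M0 and 21 to 23.1 CPM in miR-210 KO M0, while Pecam1 went the other way, at 1.01 to 2.06 and 2.11 to 2.88 CPM, and reached 6.25 to 8.68 CPM in M2. The part of these markers in the results on the targets was not tested.

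Levels are given as TMM-scaled CPM, and between genes only as CPM per kilobase of the Ensembl canonical transcript. Sdhd stood highest in each group, at 118 ± 10.7 (SD, n = 3) CPM per kilobase in WT M0 and 131 ± 11.3 (SD, n = 3) in miR-210 KO M2. Ptpn1 and Iscu followed and changed places with state. In WT M0 Ptpn1 was at 35.3 ± 3.3 and Iscu at 23.1 ± 2.69 CPM per kilobase (SD, n = 3), while in WT M2 Iscu was at 30.1 ± 3.17 and Ptpn1 at 25.8 ± 1.14, and their ranges did not overlap within any of the 4 groups. Acvr1b, Gpd1l, Casp8ap2, Rad52 and E2f3 lay between 7 and 16.6 CPM per kilobase over all libraries. Neighbours among them overlapped in part: Acvr1b with Gpd1l in 3 of the 4 groups, and Rad52 with E2f3 in 3 of 4. Cox10 was lowest of the genes with counts, between 4.18 and 5.03 CPM per kilobase. The 9 genes had between 107 and 1735 counts in a library, and the coefficient of variation within a group of 3 lay between 0.793% and 18.4%.

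**Figure D2:**
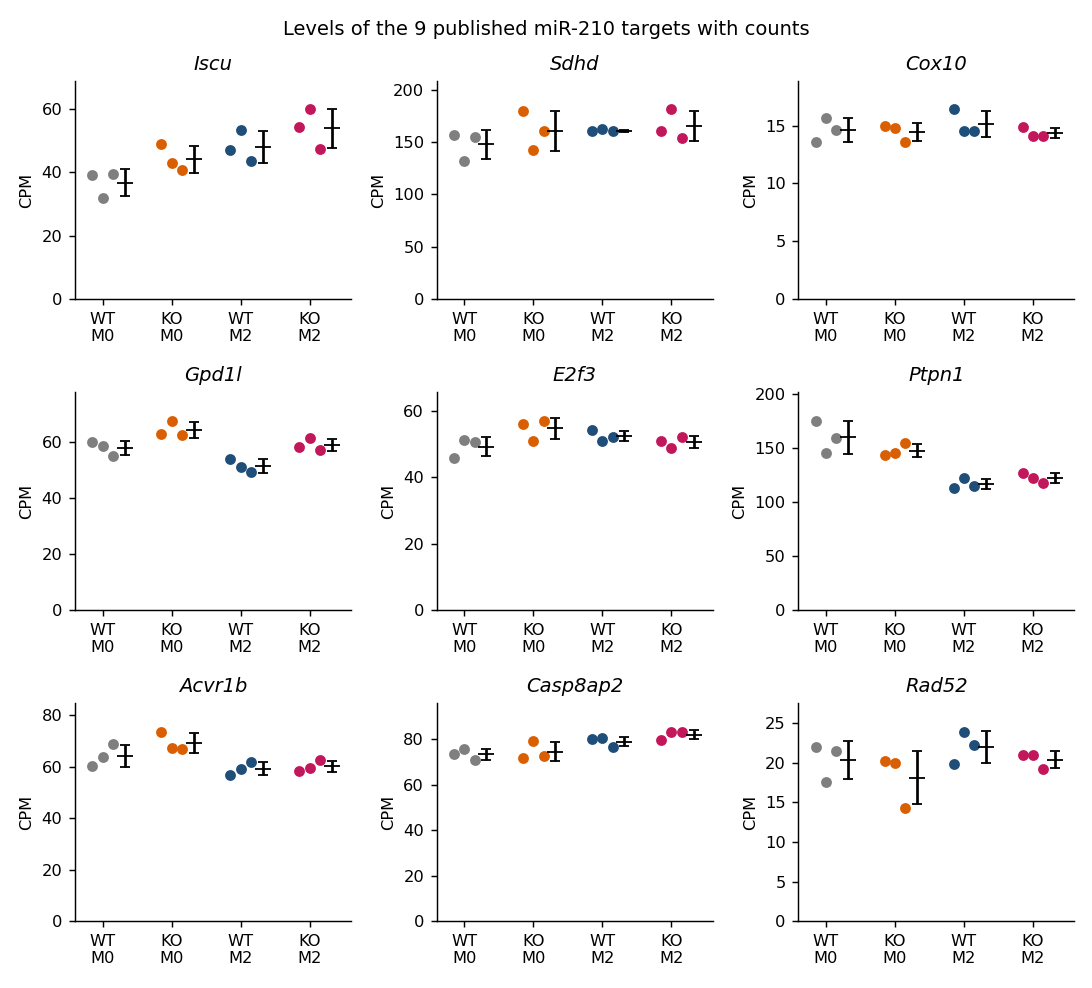
TMM-scaled CPM of the 9 genes with counts, for each of the 3 libraries (points) of a group, M0 and M2 of each genotype, with the group mean and SD (bars) beside them. Iscu is lowest in WT M0, Ptpn1 is lower in M2 than in M0, and Gpd1l is higher in miR-210 KO than in WT in both states.

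Each comparison used the 6 libraries of a pair of groups and edgeR's quasi-likelihood test, with Benjamini-Hochberg (BH) adjustment over all genes tested. Calls needed an adjusted p under 0.05 and a change of more than 1.2-fold in either direction, which is 0.26 on the log2 scale. Between miR-210 KO and WT, 0 of the 9 genes tested were called in M0, where 0.461% of all genes tested were called, and 0 of 9 in M2, where 0.980% were. The DESeq2 Wald test also called none of them in either state. At an unadjusted p under 0.05 there was 1 gene of the 9 in each state, Iscu in M0 and Gpd1l in M2. Of all genes tested, 1410 of 14089 in M0 and 1498 of 13980 in M2 had such a p. The fitted level was higher in miR-210 KO for 6 of the 9 genes in each state, with a median log2 fold change over the 9 of 0.10 in M0 and 0.04 in M2, beside 0.00 over all genes tested in both states. The number of genes called in M0 depended on single libraries, from 20 without library 3 of WT M0 to 302 without library 2 of WT M0, and in M2 from 53 without library 2 of miR-210 KO M2 to 215 without library 3 of miR-210 KO M2. Under each of these omissions, 0 of the 9 genes were called.

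Iscu (ENSMUSG00000025825, chromosome 5, 113910776 to 113917545) encodes the scaffold on which mitochondria assemble iron-sulfur clusters. In M0 its level was 39, 31.7 and 39.3 CPM in the WT libraries and 48.8, 43 and 40.5 CPM in the miR-210 KO libraries, and in M2 it was 46.9, 53.3 and 43.4 CPM in WT and 54.3, 59.7 and 47.2 CPM in miR-210 KO. Every miR-210 KO library lay above every WT library in M0, while in M2 the genotypes overlapped. The log2 fold change of miR-210 KO over WT was 0.27 (SE 0.11, 95% interval 0.02 to 0.51, BH-adjusted p = 0.44 in edgeR) in M0 and 0.17 (SE 0.09, -0.03 to 0.37, adjusted p = 0.57) in M2. Without library 2 of WT M0, the lowest of the 12, the value in M0 was 0.18. Iscu shared 13.8% of its 50-base stretches with the gene model Gm16437, so reads of these stretches could have been counted on either or on none. Of the other genes, Acvr1b and Gpd1l overlap an annotated gene on the same strand (Mir6962 and Gm68685), and their reads cannot be told apart there.

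Gpd1l (ENSMUSG00000050627, chromosome 9, 114728408 to 114763067), the gene with 3 seed sites, encodes a protein related to glycerol-3-phosphate dehydrogenase. In M0 its level was 60, 58.6 and 54.9 CPM in WT and 63, 67.6 and 62.5 CPM in miR-210 KO, and in M2 it was 54, 50.9 and 49.3 CPM in WT and 58.3, 61.4 and 57.1 CPM in miR-210 KO. All libraries of miR-210 KO lay above all those of WT in both states. The log2 fold change was 0.16 (SE 0.08, 95% interval -0.03 to 0.34, adjusted p = 0.59 in edgeR) in M0 and 0.20 (SE 0.07, 0.05 to 0.35, adjusted p = 0.27) in M2. Leaving out each library in turn gave values between 0.12 and 0.18 in M0 and between 0.17 and 0.24 in M2.

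Among the 9 genes, the miR-210 KO libraries lay wholly above the WT libraries for 2 in M0, Iscu and Gpd1l, and for 1 in M2, Gpd1l, and wholly below for none. Of all genes tested, 7.13% lay wholly above and 7.3% wholly below in M0, and 7.52% and 8.52% in M2.

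Sdhd and Cox10 are the other mitochondrial genes of the 10. Sdhd (chromosome 9, 50507642 to 50515195) encodes a membrane anchor subunit of complex II, the succinate dehydrogenase. Its level was 157, 132 and 155 CPM in WT M0, 180, 142 and 160 CPM in miR-210 KO M0, 160, 162 and 160 CPM in WT M2 and 160, 181 and 154 CPM in miR-210 KO M2. The groups overlapped between genotypes in both states. The log2 fold change of miR-210 KO over WT was 0.12 in M0 (95% interval -0.11 to 0.34) and 0.04 in M2 (-0.09 to 0.18). Cox10 (chromosome 11, 63853131 to 63970305) encodes an enzyme of heme A synthesis, a cofactor of complex IV. Its level was 13.6, 15.7 and 14.6 CPM in WT M0, 15, 14.8 and 13.6 CPM in miR-210 KO M0, 16.4, 14.5 and 14.5 CPM in WT M2 and 14.9, 14.1 and 14.1 CPM in miR-210 KO M2. The genotypes overlapped here too, with log2 fold changes of -0.02 in M0 (95% interval -0.29 to 0.26) and -0.07 in M2 (-0.30 to 0.17).

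E2f3 and Rad52 act in the nucleus. E2f3 (chromosome 13, 30090558 to 30170046) encodes a transcription factor that drives genes of DNA synthesis at entry into S phase. Its level was 45.9, 51.4 and 50.6 CPM in WT M0, 56.1, 51 and 57.1 CPM in miR-210 KO M0, 54.2, 51 and 52.3 CPM in WT M2 and 51, 48.8 and 52.2 CPM in miR-210 KO M2. The log2 fold change was 0.15 in M0 (95% interval -0.05 to 0.34) and -0.05 in M2 (-0.20 to 0.10), with overlapping genotypes in both. Rad52 (chromosome 6, 119879319 to 119900382), a gene of homologous recombination, was at 22, 17.6 and 21.5 CPM in WT M0, 20.2, 19.9 and 14.3 CPM in miR-210 KO M0, 19.8, 23.9 and 22.2 CPM in WT M2 and 21, 21 and 19.2 CPM in miR-210 KO M2. In miR-210 KO M0 it had the widest spread of the 9 genes in any group, and its log2 fold changes of -0.16 in M0 (95% interval -0.49 to 0.17) and -0.10 in M2 (-0.32 to 0.11) leave room for a change of either sign.

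Acvr1b, Ptpn1 and Casp8ap2 belong to signalling and cell death. Acvr1b (chromosome 15, 101071921 to 101111565) encodes a type I receptor for activin. Its level was 60.4, 63.8 and 68.8 CPM in WT M0, 73.6, 67.3 and 66.9 CPM in miR-210 KO M0, 56.8, 59.2 and 61.8 CPM in WT M2 and 58.4, 59.6 and 62.5 CPM in miR-210 KO M2. The log2 fold change of miR-210 KO over WT was 0.10 in M0 (95% interval -0.09 to 0.30) and 0.03 in M2 (-0.12 to 0.17). Casp8ap2 (chromosome 4, 32615429 to 32653265) encodes a protein that binds caspase-8 and also takes part in the processing of histone messages. It was at 73.4, 75.7 and 70.8 CPM in WT M0, 71.5, 79.3 and 72.6 CPM in miR-210 KO M0, 79.8, 80.4 and 76.5 CPM in WT M2 and 79.7, 83.2 and 83 CPM in miR-210 KO M2, and its log2 fold change was 0.02 in M0 (95% interval -0.16 to 0.20) and 0.06 in M2 (-0.07 to 0.19). For both genes the genotypes overlapped in both states.

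Ptpn1 (ENSMUSG00000027540, chromosome 2, 167773944 to 167821309) encodes the tyrosine phosphatase PTP1B, which acts on receptors and kinases of insulin and cytokine signalling. Its level was 175, 145 and 159 CPM in WT M0 and 143, 145 and 154 CPM in miR-210 KO M0, and 113, 122 and 115 CPM in WT M2 and 127, 122 and 117 CPM in miR-210 KO M2. All M2 libraries lay below all M0 libraries, and the genotypes overlapped in each state. The log2 fold change of miR-210 KO over WT was -0.11 in M0 (95% interval -0.31 to 0.08) and 0.07 in M2 (-0.06 to 0.20).

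Efna3 (chromosome 3, 89221203 to 89230272), which encodes a membrane-bound ligand of Eph receptors, had 0 counts in each of the 12 libraries and was not tested. A count of 0 allows up to 3 counts of a library, at most 0.381 CPM in the shallowest library, for counting error only. Efna3 was 1 of 5939 protein-coding genes, of 21667 in the tables, with 0 counts throughout. Of the other ephrins, Efna5 was also at 0 in every library, Efna4 had at most 1 count in a library, Efna1 had between 2 and 23 counts, and Efnb1 between 13 and 40. Any difference in Efna3 between the genotypes was not detectable at this depth.

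The 95% interval of the log2 fold change between miR-210 KO and WT lay wholly within a 1.2-fold change in either direction, the limit used for a call, for 1 of the 9 genes in M0 (Casp8ap2) and for 5 of 9 in M2. For the others a change beyond that limit is inside the interval, and a p that misses the threshold does not show that their levels were the same. A fit of all 12 libraries with state and genotype as additive terms, added after seeing the data, again called 0 of the 9 genes, with 1.07% of all genes called. In this fit Gpd1l had a log2 fold change of 0.18 (95% interval 0.07 to 0.28, unadjusted p = 0.0023, BH-adjusted p = 0.12 in edgeR) and Iscu of 0.22 (0.05 to 0.38, unadjusted p = 0.0134, adjusted p = 0.3). The intervals of 6 of the 9 genes lay within that limit, and Iscu, Gpd1l and Rad52 were the exceptions.

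**Figure D3:**
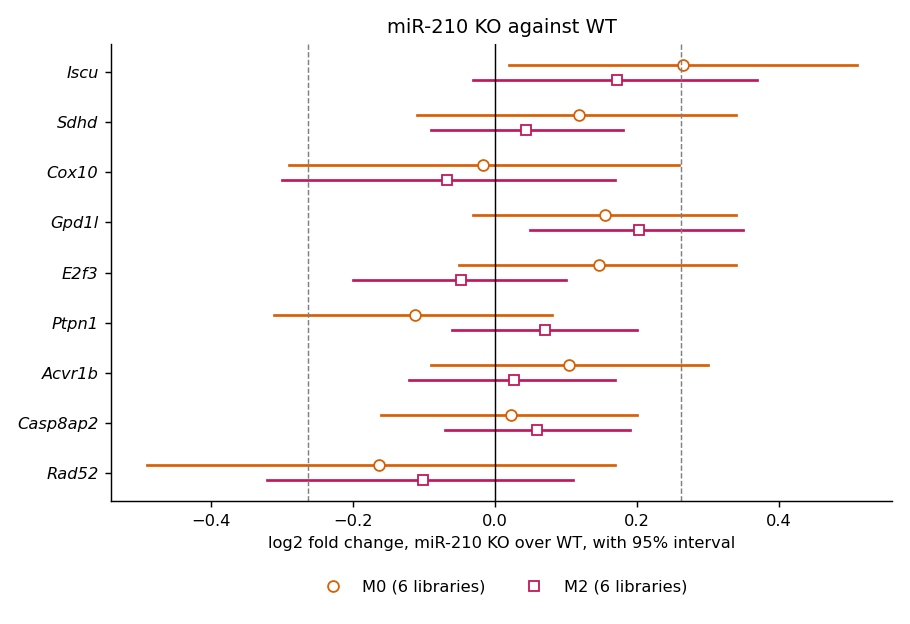
Fitted log2 fold change of miR-210 KO over WT with its 95% interval for the 9 genes, in M0 (circles) and M2 (squares), 6 libraries each, with dashed lines at a 1.2-fold change in both directions. No symbol is filled, since none was called. Iscu in M0 and Gpd1l in M2 have intervals above 0.

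The 4 tested genes with a seed match in the 3′ UTR (Iscu, E2f3, Gpd1l, Acvr1b) had log2 fold changes of miR-210 KO over WT between 0.10 and 0.27 in M0, with 4 of 4 above 0, and between -0.05 and 0.20 in M2, with 3 of 4 above 0. The 5 genes without a match lay between -0.16 and 0.12 in M0, with 2 of 5 above 0, and between -0.10 and 0.07 in M2, with 3 of 5 above 0. This split was made after the values were seen and was not tested. Over all protein-coding genes, the median log2 fold changes of the 4 classes of seed match lay between -0.006 and 0.005 in M0, all below the 0.010 of genes with no match, and between 0.011 and 0.030 in M2, all above the 0.001 of genes with no match. These differences were not tested. Genes with a match also had longer 3′ UTRs, with class medians of 2878 to 3319 bases in M2, beside 1724 bases with no match. The part of this length in the values was not tested. Genes with a 7- or 8-letter match had a higher fitted level in miR-210 KO for 50.6% of 714 genes in M0 and 56.3% of 726 in M2, with median log2 fold changes of 0.002 and 0.017, and genes with no match for 52.8% of 9417 in M0 and 50.2% of 9463 in M2. Of the genes with a 7- or 8-letter match, 3 were called higher and 0 lower in M0, and 5 higher and 2 lower in M2. The higher ones were 0.42% of that class in M0 and 0.689% in M2, beside 0.237% and 0.453% of all protein-coding genes tested. Named after their values were seen, those higher in M0 were Mmd, Txnrd1 and Gdf3. Gdf3, a ligand of the TGF-beta family, had log2 fold changes of 1.23 in M0 (adjusted p = 0.034 in edgeR) and 1.52 in M2 (adjusted p = 1.7e-05). Mmd, a gene linked to macrophage differentiation, had 0.51 in M0 (adjusted p = 0.043 in edgeR) and 0.40 in M2 (adjusted p = 0.013). The 2 called lower in M2, also named after their values were seen, were Tnfaip8l3 (-1.10) and Shtn1 (-0.33).

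**Figure D4:**
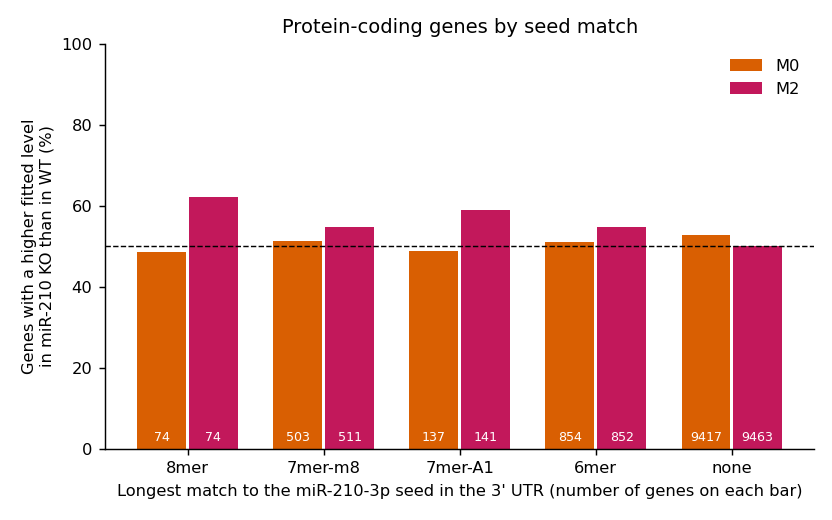
Share of protein-coding genes, in percent, with a higher fitted level in miR-210 KO than in WT, by the longest seed match in their longest 3′ UTR, in M0 and M2, with the number of genes on each bar and a dashed line at 50%. The shares lie between 48.6% and 62.2%, the highest being the 74 genes with an 8mer in M2.

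For polarization, 2 of the 9 genes were called in WT. Between M2 and M0 in WT, Iscu rose, with a log2 fold change of 0.40 (SE 0.10, 95% interval 0.18 to 0.61, BH-adjusted p = 0.0057 in edgeR), a 1.32-fold higher level, and Ptpn1 fell by 0.44 (SE 0.07, 95% interval -0.60 to -0.28, adjusted p = 0.00027), to 0.736 of its M0 level. These were 2 of 9 genes called, where 43.0% of all genes tested were called. All 3 WT M2 libraries lay above the WT M0 libraries for Iscu, Sdhd and Casp8ap2 and below them for Ptpn1 and Gpd1l, 5 of the 9 genes, beside 57% of all genes tested with no overlap. Leaving out any library in WT kept both calls, with values between 0.30 and 0.46 for Iscu and between -0.51 and -0.37 for Ptpn1. The 7 genes not called had log2 fold changes between -0.16 (Gpd1l) and 0.13 (Sdhd).

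In miR-210 KO, Ptpn1 fell by 0.27 (SE 0.08, 95% interval -0.43 to -0.10, BH-adjusted p = 0.014 in edgeR), just past the limit on the fold change, and was 1 of 9 genes called, where 33.8% of all genes tested were called. Without library 3 of miR-210 KO M0 or library 3 of miR-210 KO M2 its value was -0.25 (adjusted p = 0.057 and 0.045) and it was not called. Iscu had 0.29 (SE 0.11, 0.06 to 0.52, adjusted p = 0.054) and was not called, but it was called at 0.36 without library 1 of miR-210 KO M0 (adjusted p = 0.021) and without library 3 of miR-210 KO M2 (adjusted p = 0.024). Acvr1b was at -0.20 (SE 0.08, -0.38 to -0.02, adjusted p = 0.075), with all miR-210 KO M2 libraries below all miR-210 KO M0 libraries. Ptpn1 and Gpd1l also lay wholly below and Casp8ap2 wholly above, 4 of the 9 genes, beside 46.3% of all genes tested with no overlap.

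These comparisons share their libraries with those between the genotypes. Whether polarization differed between the genotypes was tested as the interaction of genotype and IL-4 over all 12 libraries. For the 9 genes 0 were called at an adjusted p under 0.05, where 0% of all genes tested were (edgeR), and 0 of the 9 had an unadjusted p under 0.05. Over all 14825 genes 1327 had an unadjusted p under 0.05, and the DESeq2 Wald test called 83 genes, none of the 9 among them. Iscu, called in WT and not in miR-210 KO, had an interaction of -0.10 on the log2 scale (95% interval -0.43 to 0.23), so its response was not shown to differ between the genotypes. The largest interaction values were those of E2f3, -0.20 (-0.42 to 0.02, unadjusted p = 0.0773), and Ptpn1, 0.18 (-0.05 to 0.40, unadjusted p = 0.111). E2f3 was higher in M2 than in M0 in WT by 0.09 and lower in miR-210 KO by 0.11, and neither was called.

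**Figure D5:**
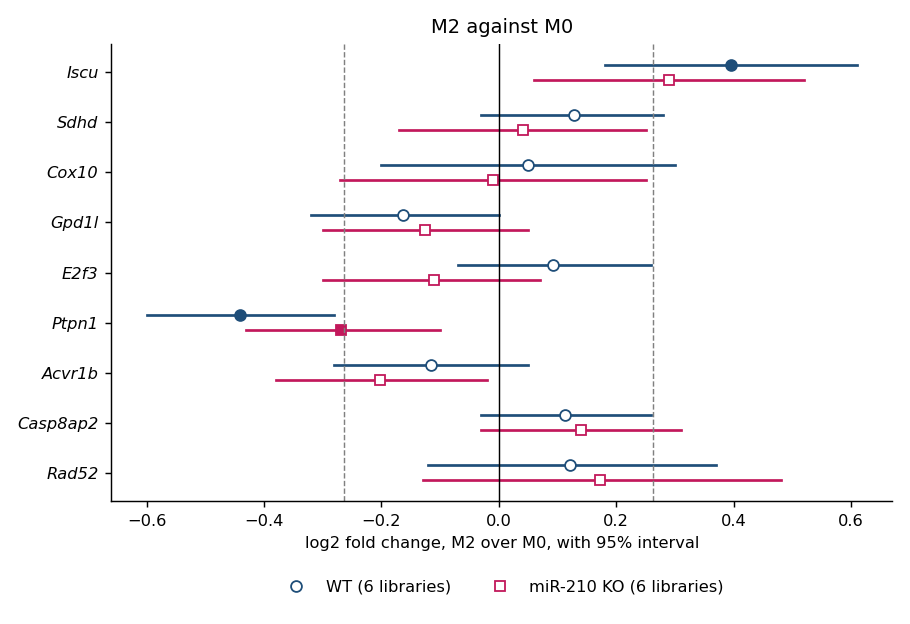
Fitted log2 fold change of M2 over M0 with its 95% interval for the 9 genes, in WT (circles) and miR-210 KO (squares), 6 libraries each, with dashed lines at a 1.2-fold change in both directions. Filled symbols were called, which are Iscu and Ptpn1 in WT and Ptpn1 in miR-210 KO.

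Iscu and Ptpn1 had the widest ranges of group means, 0.54 and 0.44 on the log2 scale, and Cox10 the narrowest of the 9, 0.06. Over the 12 libraries the patterns nearest to that of Iscu, by the root mean square difference of gene-centred log2 CPM among 14824 genes, were those of the identifier ENSMUSG00000044068 (0.06), which has no symbol in the annotation used, Ergic3 (0.09) and Hebp1 (0.09). Nearest to Ptpn1 were Ist1, Nr1d2 and Mpp1 (0.06 each).

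The genes that work beside the 10 were counted in lists by pathway, and few of them were called between the genotypes. Of all genes tested, 0.461% were called in M0 and 0.980% in M2. Of 12 tested genes of iron-sulfur cluster assembly, the pathway of Iscu, 0 were called in M0 and 0 in M2. None of the 7 genes of complex II and its assembly factors, the 9 of heme A synthesis and complex IV assembly, the 2 other glycerol-3-phosphate dehydrogenases, the 7 other E2F genes, the 6 of the caspase-8 pathway, the 10 of homologous recombination or the 12 of microRNA processing and silencing was called in either state. The medians of these 8 lists lay between -0.25 and 0.26 in M0 and between 0.01 and 0.25 in M2. Of the other ephrins, 3 were tested in M0 (median 0.22) and 2 in M2 (median -0.08), and none was called. In the list of 8 genes of oxygen sensing, Egln3, a prolyl hydroxylase that marks hypoxia-inducible factors for degradation, rose in miR-210 KO M0, from 24.4 ± 4.27 to 44.8 ± 2.85 CPM (SD, n = 3), with a log2 fold change of 0.87 (SE 0.12, BH-adjusted p = 0.01 in edgeR). In M2 it was at 6.11 ± 1.14 CPM in WT and 6.96 ± 1.72 CPM in miR-210 KO and was not called. Among 9 tested receptors and SMADs of the activin and TGF-beta pathway, Tgfbr2 rose in miR-210 KO M2, from 151 ± 12.8 to 193 ± 12.3 CPM (SD, n = 3), with a log2 fold change of 0.35 (SE 0.07, adjusted p = 0.023).

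Of 14 further published targets of miR-210, 10 were tested and 0 were called in either state, with medians of 0.19 in M0 and 0.01 in M2. The shares of all genes called were 0.461% in M0 and 0.980% in M2. In the additive fit of all 12 libraries 1 of the 10 was called, beside 1.07% of all genes tested. It was Stmn1, which encodes a protein that destabilises microtubules. Its mean was 13.1 ± 3.19 CPM in WT M0, 22.4 ± 3.94 CPM in miR-210 KO M0, 24.5 ± 1.72 CPM in WT M2 and 31 ± 1.35 CPM in miR-210 KO M2 (SD, n = 3). Its log2 fold change of miR-210 KO over WT was 0.76 in M0 (adjusted p = 0.11 in edgeR) and 0.35 in M2 (adjusted p = 0.084), and 0.53 in the additive fit (adjusted p = 0.022). In the same fit Egln3 (0.66, adjusted p = 0.018) and E2f7 (1.00, adjusted p = 0.025), a repressor of the E2F family, were called, and no gene of the other lists was. Stmn1 and E2f7 were singled out after their values were seen.

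Between M2 and M0, of the 12 tested genes of iron-sulfur cluster assembly, 0 rose and 2 fell in WT, Nfu1 by 1.08 and Hscb by 0.67 on the log2 scale (adjusted p = 2.9e-05 and 0.0038 in edgeR), and 0 rose and 3 fell in miR-210 KO, Nfu1 (-0.72), Hscb (-0.75) and Isca1 (-0.63). Beside Sdhd, Sdhc, the other membrane anchor of complex II, rose by 0.50 in WT and 0.32 in miR-210 KO, and was the 1 gene of 7 of that list called in WT, while in miR-210 KO Sdhaf2 (0.32) was called as well. Of the heme A and complex IV assembly genes Coa3 (-0.50) and Cox11 (-0.62) fell in WT, and 0 of 9 were called in miR-210 KO. There Coa3 was at -0.26 and Cox11 at -0.24. The interaction of genotype and IL-4 was called for neither gene (adjusted p = 0.61 and 0.79 in edgeR). Gpd1, a cytosolic glycerol-3-phosphate dehydrogenase, rose by 0.76 in WT and 1.61 in miR-210 KO, while Gpd1l was not called in either. Counts of Gpd1 were low, 17 to 24 in a library of WT M0 and 13 to 15 in miR-210 KO M0. The interaction for Gpd1 was 0.86 and was not called (adjusted p = 0.38 in edgeR).

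Among the E2F genes E2f4 rose by 0.27 and E2f5 fell by 0.28 in WT, and E2f5 fell by 0.30 in miR-210 KO, out of 7 tested. Of 10 genes of homologous recombination 3 fell in WT (Rad51d, Brca2 and Palb2, between -0.40 and -0.32) and 2 in miR-210 KO (Brca2 and Rad51d). Casp8, whose product Casp8ap2 binds, fell by 0.28 and Cflar by 0.51 in WT, out of 6, and Cflar by 0.49 in miR-210 KO. Casp8 was at -0.23 in miR-210 KO (adjusted p = 0.045 in edgeR), short of the limit on the fold change. In the pathway of Acvr1b, Smad7 rose and Tgfbr2 and Smad3 fell in both genotypes, out of 9 tested, with Tgfbr2 at -1.64 in WT and -1.32 in miR-210 KO. Of the other published targets 5 of 10 rose in WT, among them Tfrc, the transferrin receptor (1.96), Nfkb1 (0.93) and Ptpn2, a phosphatase related to Ptpn1 (0.87), and 4 of 10 in miR-210 KO. Of 8 genes of oxygen sensing, Egln3 (-2.00) and Arnt (-0.31) fell and Epas1 (0.68) rose in WT. In miR-210 KO Egln3 (-2.68) fell, while Epas1 (0.50, adjusted p = 0.052 in edgeR) and Arnt (-0.16) were not called. Efna1 was the 1 ephrin of 3 tested that was called, at -1.34 in WT, and of 7 EphA receptors 1 had enough counts to be tested and was not called. Of 12 genes of microRNA processing and silencing, 1 rose and 6 fell in WT and 1 rose and 3 fell in miR-210 KO, with Tarbp2 up (0.91 and 0.79) and Ago4 (-1.05 and -0.75) and Tnrc6a (-0.54 and -0.31) down in both. In each list these calls stand beside 43.0% of all genes called in WT and 33.8% in miR-210 KO. The interaction of genotype and IL-4 called 0 of all genes tested in edgeR. A call in 1 genotype only therefore does not show a different response.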

How the data were processed

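Per the labels and the study's methods, the authors trimmed reads with Trimmomatic, removed duplicates with Picard, aligned to GRCm39 with STAR and counted stranded reads per gene with featureCounts. The authors deposited raw counts for 4 pairs of groups, and a signal, in which a size factor scales those counts, used here only as an alternative for levels. Columns name a group and a number not tied to a sample. Counts were tested with edgeR 4.0.16 in R 4.3.3 (TMM, filterByExpr, quasi-likelihood test, BH adjustment). Alternatives were DESeq2 1.42.0, other normalizations and filters, 1 fit of 12 libraries, a block by number, and omission of each library. GENCODE matched 56323 of 56941 identifiers. No 2 libraries within a group were as alike as counting noise allows. Testing on simulated data preceded the fits. Removal of duplicates can lower counts of abundant, short genes. Members and lists were chosen with earlier results of these data known. Named are the 10 genes, Mir210, up to 3 genes per list with the smallest adjusted p among those called, and the 3 patterns nearest to Iscu and Ptpn1, with markers of the cells, and a few genes marked in the text as picked after their values were seen.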

Additional observations from a re-analysis of the deposited data

How the results depend on the processing

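The number of target genes called was 0 between miR-210 KO and WT in M0, in M2 and over both states, and 0 for the interaction, under every alternative run, omission of each library included (0 to 0). For M2 against M0 in WT it was 2 under every alternative (2 to 2 on omission of a library). In miR-210 KO it was 1, but 2 with no filter on low counts and 2 with all 12 libraries in one fit, where Iscu was also called, and it lay between 0 and 2 on omission of a library. The cause was not tested. The size factors of the authors kept the direction of all group differences in level, 22 of 36 upward, and the use of every annotated 3′ UTR kept the number of genes with a seed match at 5.

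With the library number as a block the number called stayed at 0 in M0, 0 in M2, 2 for polarization in WT, 1 in miR-210 KO, 0 for the interaction and 0 over both states. The labels do not say whether the same numbers pair the libraries. Deviations from the group means correlated between same-numbered libraries at 0.129, 0.403 and 0.0285 in M0 and at -0.103, 0.113 and 0.0899 in M2. Between libraries of different numbers the correlations lay between -0.323 and 0.282 in M0 and between -0.199 and 0.122 in M2. From M0 to M2, same numbers gave -0.0492, -0.106 and -0.0613 in WT and 0.0773, -0.333 and -0.00406 in miR-210 KO. Different numbers gave -0.0482 to 0.112 in WT and -0.346 to 0.353 in miR-210 KO. Over all genes, the block moved the number called from 65 to 284 in M0 and from 137 to 289 in M2.

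Omission of 1 library turned the sign of small values in 17 fits, some values in more than 1 fit. None of these values was called. They are Cox10 in M0 (-0.06 to 0.05), Casp8ap2 in M0 (-0.02 to 0.06), Sdhd in M2 (-0.03 to 0.09) and Acvr1b in M2 (0.00 to 0.06) for genotype, Cox10 in WT (-0.01 to 0.10), and Sdhd (-0.05 to 0.13) and Cox10 (-0.07 to 0.01) in miR-210 KO for polarization, the interaction of Sdhd (-0.17 to 0.01), Cox10 (-0.12 to 0.00), Casp8ap2 (-0.01 to 0.07) and Rad52 (-0.10 to 0.14), and Ptpn1 over both states (-0.05 to 0.02). Rad52 and Cox10, with the fewest counts, had among the widest intervals.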
